A study of Caenorhabditis elegans with 4 samples.

Results

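The genes described here build the Caenorhabditis elegans eggshell and set off egg activation, the switch from oocyte to embryo. They are cbd-1, perm-2, perm-4, cpg-1, cpg-2, egg-1, egg-2, egg-3, egg-4 and egg-5, chosen by symbol as a family of known function, and all 10 were found by WormBase identifier among the 46748 genes counted. Poly(A) RNA was sequenced from whole L3 larvae grown on plates at 20°C, with 2 libraries from strain N2, the wild type, and 2 from strain GW638, which carries the alleles met-2(n4256) and set-25(n5021). Methylation of histone H3 at lysine 9 depends on the enzymes MET-2 and SET-25, and the question is which RNAs change when both are missing. Nothing in the labels tells whether the libraries of each genotype were grown separately, so the spread behind the p-values may be technical. Libraries are called here by the identifiers in the count tables, rWQS019 and rWQS042 for wild type and rWQS029 and rWQS045 for the mutant.

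The eggshell is laid down in layers after fertilization. The outer vitelline layer is already on the oocyte and holds CBD-1, PERM-2 and PERM-4; a chitin layer lies under it, and an inner layer is made of the chondroitin proteoglycans CPG-1 and CPG-2. EGG-1 and EGG-2 are oocyte membrane proteins with LDL receptor repeats that sperm entry requires. EGG-3, EGG-4 and EGG-5 are phosphatase-like proteins without phosphatase activity that hold the kinase MBK-2 at the oocyte cortex, and they are needed for chitin deposition and for the exit from meiosis. Oocytes form in adults, so an L3 larva has germ cells but no oocyte or eggshell.

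The libraries held 22849521 to 56879896 counts. Levels are given as TMM-scaled CPM, the count of a gene relative to its library total, corrected for differences in composition between libraries. met-2 was at 62 and 55.8 CPM in wild type (rWQS019, rWQS042) and at 31.8 and 35.3 CPM in the mutant (rWQS029, rWQS045), and set-25 was at 11.4 and 17.5 against 11.5 and 11.6 CPM. Counts over whole genes do not show where in met-2 and set-25 the reads lie, and neither gene passed edgeR (adjusted p = 0.342 and 0.768), so they check the labels only weakly. The 7 early zygotic genes, led by end-1, med-2 and end-3, summed to between 0.112 and 0.783 CPM and 0 of them had enough counts for edgeR. tbx-38 was at 0 throughout and the adult cuticle collagen gene col-19 was between 0.035 and 0.177 CPM, both named after their values were seen. The cuticle gene bli-2 and the yolk gene vit-1 were higher in the mutant, at up to 18.3 and 7.25 CPM. vit-1 made up most of the yolk sum, which was at most 8.11 CPM. The yolk gene vit-4 and the cuticle gene col-7 overlapped between genotypes. In whole larvae, fewer cells of a type and less RNA per cell cannot be told apart.

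cbd-1 was the most changed of these genes. It encodes a chitin-binding protein that is essential for the vitelline layer, and it lies on chromosome IV (WBcel235, 11372991 to 11377627, plus strand), with no other annotated gene over it. Its counts were 179 and 797 in wild type and 1997 and 3789 in the mutant. This corresponds to 7.78 CPM in rWQS019, 14 CPM in rWQS042, 50.6 CPM in rWQS029 and 84.9 CPM in rWQS045. Both mutant libraries stood well above both wild type libraries, and each genotype had a lower and a higher library. The mean went from 10.9 ± 4.37 to 67.8 ± 24.3 CPM (SD, n = 2 libraries each), a 6.23-fold difference of means. edgeR's quasi-likelihood test gave a log2 fold change of 2.64 ± 0.44 (SE, 95% interval 1.50 to 3.77) with an unadjusted p of 0.00202, which ranked 195 among 15978 genes. After Benjamini-Hochberg adjustment over all genes the edgeR p was 0.165. DESeq2, which the study itself used, gave cbd-1 an adjusted p of 2.79e-05, so that cbd-1 rose by DESeq2's criterion but not by that of edgeR. That call was lost without rWQS019, where the DESeq2 adjusted p was 0.102, and was kept when any other library was left out.

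egg-4 was the other gene with a large difference. It encodes an inhibitory partner of MBK-2 and lies on chromosome I (3932210 to 3934813, plus strand), again with no overlapping gene. It had 27 and 53 counts in wild type and 117 and 262 in the mutant. The levels were 1.17 CPM in rWQS019, 0.928 CPM in rWQS042, 2.97 CPM in rWQS029 and 5.87 CPM in rWQS045. Wild type and mutant values did not overlap, but the mutant libraries differed 1.98-fold from each other. Counting error alone was wide at this depth: the 27 counts of rWQS019 allowed 0.779 to 1.72 CPM before TMM scaling (exact Clopper-Pearson 95% interval). The mean went from 1.05 ± 0.174 to 4.42 ± 2.05 CPM (SD, n = 2 libraries each), with an edgeR log2 fold change of 2.08 ± 0.50 (SE, 95% interval 0.78 to 3.38). The edgeR p was 0.00943 before and 0.292 after adjustment, and the DESeq2 adjusted p was 0.0164. DESeq2 lost the call without rWQS019 (adjusted p = 0.434), without rWQS042 (0.585) and without rWQS045 (0.466).

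**Figure D1:**
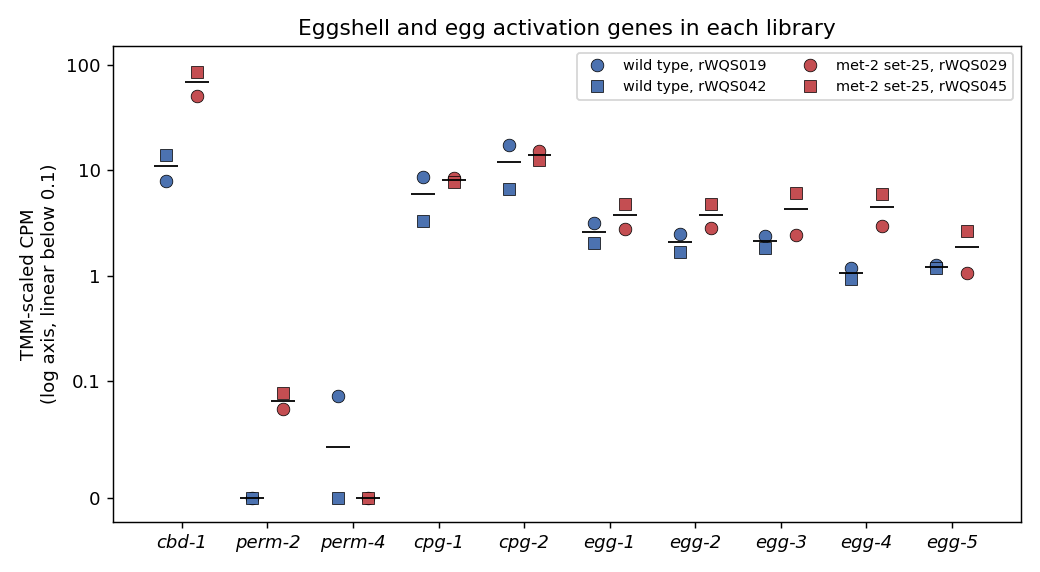
TMM-scaled CPM of each gene (y axis, logarithmic and linear below 0.1) in the 4 libraries, with wild type in blue, met-2 set-25 in red and the mean of each genotype as a bar. The mutant libraries lie above the wild type libraries by the widest margin for cbd-1 and then egg-4, cpg-1 and cpg-2 overlap between genotypes, and perm-2 and perm-4 are at or near 0.

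egg-5, the paralog of egg-4, did not follow it. egg-5 lies on the same chromosome (4168984 to 4171589, minus strand) and has nearly the same exon length, 2364 against 2362 bases. It was at 1.26 CPM in rWQS019, 1.17 CPM in rWQS042, 1.06 CPM in rWQS029 and 2.64 CPM in rWQS045. Of the mutant libraries, rWQS029 was below both wild type libraries and rWQS045 was above them, so the genotypes overlapped. The edgeR log2 fold change was 0.61 (95% interval -0.85 to 2.07, adjusted p = 0.749), and it was -0.19 without rWQS045. Per kilobase of exon, egg-4 was at 0.932 and 0.792 times the level of egg-5 in wild type, and at 2.79 and 2.22 times that level in the mutant. Whether this ratio differed between genotypes was not tested. The sources used here do not give the rule for reads that fit more than 1 copy, so the split of reads between these paralogs is uncertain.

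The remaining phosphatase-like gene, egg-3, lies on chromosome II (10882408 to 10884441, minus strand). It encodes the protein that tethers MBK-2 and the chitin synthase CHS-1. It was at 2.39 CPM in rWQS019, 1.84 CPM in rWQS042, 2.41 CPM in rWQS029 and 6.07 CPM in rWQS045. rWQS029 was at the level of the higher wild type library, and the difference between genotypes rested on rWQS045. The edgeR log2 fold change was 1.01 with all libraries (95% interval -0.44 to 2.46, adjusted p = 0.613) and 0.20 without rWQS045. egg-3 shares 21 exon bases with lurp-1 on the opposite strand, which was at 3.32 to 6.64 CPM. The kit does not mark strand, so reads from that stretch cannot be assigned to either gene.

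The sperm entry genes egg-1 and egg-2 were close to each other in every library. egg-1 (chromosome III, 5728180 to 5730159, plus strand) was at 3.13 CPM in rWQS019, 2.03 CPM in rWQS042, 2.79 CPM in rWQS029 and 4.77 CPM in rWQS045, so the genotypes overlapped. egg-2 (chromosome III, 7058527 to 7060583, minus strand) was at 2.48, 1.68, 2.81 and 4.73 CPM in the same order, with both mutant libraries just above the wild type libraries. Their ratio per kilobase, egg-1 over egg-2, was 1.24 and 1.19 in wild type and 0.974 and 0.993 in the mutant. edgeR gave log2 fold changes of 0.56 for egg-1 (95% interval -0.64 to 1.76, adjusted p = 0.719) and 0.87 for egg-2 (-0.32 to 2.05, adjusted p = 0.603). These intervals include no difference and also a more than 2-fold rise, so a change of that size was not excluded here. egg-1 and egg-2 are also paralogs, and the split of their reads is uncertain. egg-1 shares 42 exon bases with B0244.9 on the opposite strand, which had at most 4 counts.

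The proteoglycan genes differed more between the wild type libraries than between genotypes. cpg-1 (chromosome III, 4489359 to 4491392, plus strand) was at 8.65 CPM in rWQS019, 3.31 CPM in rWQS042, 8.36 CPM in rWQS029 and 7.73 CPM in rWQS045. cpg-2 (chromosome III, 7102092 to 7103990, minus strand) was at 17.3, 6.55, 15.2 and 12.3 CPM. For both genes rWQS042 was the low library and the other wild type library was the highest of all. rWQS019 exceeded rWQS042 by 2.61-fold for cpg-1 and 2.64-fold for cpg-2, while the counts (199 and 189 for cpg-1, 397 and 374 for cpg-2) put this outside counting error. The ratio of cpg-2 to cpg-1 per kilobase stayed between 1.75 and 2.19. The edgeR log2 fold changes were 0.44 (95% interval -0.93 to 1.80) and 0.22 (-1.13 to 1.56), with adjusted p of 0.808 and 0.906, and without rWQS042 they were -0.11 and -0.33.

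perm-2 and perm-4 were almost silent. These vitelline layer genes are neighbours on chromosome IV (1126790 to 1128865, plus strand, and 1121494 to 1125107, minus strand), 1683 bases apart and transcribed away from each other. perm-2 had 0 counts in both wild type libraries and 3 and 4 counts in the mutant libraries. perm-4 had 2 counts in rWQS019 and 0 in each of the other libraries. A count of 0 allowed up to 0.131, 0.0527, 0.082 and 0.0617 CPM in rWQS019, rWQS042, rWQS029 and rWQS045, taken as 3 counts of the library total and covering counting error only. Neither gene had enough counts for the edgeR filter or for an adjusted p in DESeq2, and no fold change is given. C44B12.6, which runs on the opposite strand at perm-2 and shares 25 exon bases with it, had 12 and 26 counts in wild type and 224 and 195 in the mutant. It was named after its values were seen; its edgeR log2 fold change was 3.36 ± 0.41 (SE, adjusted p = 0.0977) and it rose by DESeq2 (adjusted p = 4.28e-08). Without strand, the few perm-2 counts cannot be told apart from reads of C44B12.6.

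Within the vitelline layer the RNAs were therefore unequal. Per kilobase of exon, cbd-1 was at 2.58 ± 1.03 CPM per kilobase in wild type and 16.1 ± 5.75 in the mutant (SD, n = 2), against 0 and 0.113 ± 0.0131 for perm-2 and 0.0393 ± 0.0556 and 0 for perm-4. In wild type the order of levels was cpg-2 (6.91 ± 4.4 CPM per kilobase), cpg-1 (3.17 ± 2), cbd-1, egg-1 (1.44 ± 0.433), egg-3 (1.18 ± 0.218), egg-2 (1.18 ± 0.319), egg-5 (0.515 ± 0.0261), egg-4 (0.445 ± 0.0735), perm-4 and perm-2. The library values of neighbours in that order overlapped, except between cbd-1 (1.84 and 3.31) and egg-1 (1.13 and 1.74), between egg-2 (0.953 and 1.4) and egg-5 (0.496 and 0.533), and between egg-4 (0.393 and 0.497) and perm-4 (0 and 0.0786). Within a library, cpg-2 was above cpg-1 in rWQS019 (2.19-fold) and in rWQS042 (2.17-fold). cpg-1 was above cbd-1 in rWQS019 (4.58 against 1.84) and below it in rWQS042 (1.75 against 3.31). In the mutant cbd-1 came first (12 and 20.1), above both libraries of the next gene, followed by cpg-2 (8 ± 1.18 CPM per kilobase) and cpg-1 (4.26 ± 0.237), and the egg genes lay between 0.784 ± 0.473 for egg-5 and 2.36 ± 1.44 for egg-3. cbd-1 took 17.6% and 44.4% of the summed CPM of the family in wild type and 58.6% and 65.7% in the mutant. Without cbd-1 the other 9 genes summed to 36.4 and 17.5 CPM in wild type and to 35.7 and 44.3 CPM in the mutant, with the lowest value in the wild type library rWQS042. Among protein-coding genes, 41.3% and 47.3% had a lower level per kilobase than cbd-1 in the wild type libraries, and 65.4% and 74.6% did in the mutant libraries. For egg-4 the shares were 32.1% and 31.5% in wild type and 38.3% and 45.4% in the mutant.

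Of the 10 genes, 8 passed edgeR's filter on low counts and 0 were called at an adjusted p under 0.05, as were 0 of all genes tested (0%, smallest adjusted p 0.066). At an unadjusted p under 0.05 edgeR had cbd-1 and egg-4 as higher and no member as lower, against 6.2% of all genes higher and 3.87% lower. DESeq2 called the same pair as higher and no member as lower among the 8 to which it gave an adjusted p, where it called 2.49% of all genes higher and 0.821% lower. The log2 fold change was above 0 for all 8 tested genes, as it was for 51.6% of all genes tested. Their median log2 fold change was 0.74, against 0.02 over all genes. Both mutant libraries were above both wild type libraries for 4 of the 8 (cbd-1, egg-2, egg-3 and egg-4), and for 22.1% of all genes tested. For egg-3 the margin was 2.41 against 2.39 CPM, and egg-2 and egg-3 did not pass either test.

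**Figure D2:**
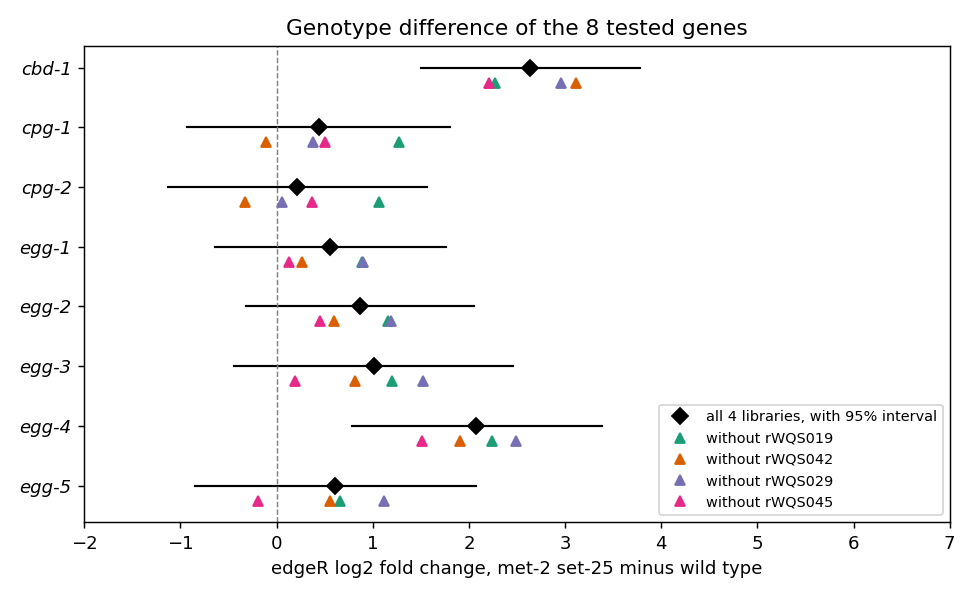
edgeR log2 fold change, met-2 set-25 minus wild type (x axis), of the 8 tested genes with all 4 libraries (diamonds, with 95% intervals) and with each library left out (triangles). The intervals of cbd-1 (1.50 to 3.77) and egg-4 (0.78 to 3.38) exclude 0 before adjustment for the number of genes, and cpg-1, cpg-2 and egg-5 fall on the other side of 0 when a single library is left out.

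The mutant libraries differed from each other in most of the family. rWQS045 was above rWQS029 for the egg genes and for cbd-1, by log2 differences of 0.75 for cbd-1 and egg-2, 0.78 for egg-1, 0.99 for egg-4, 1.31 for egg-5 and 1.33 for egg-3. cpg-1 and cpg-2 went the other way, at -0.11 and -0.30. Between the wild type libraries, rWQS042 was above rWQS019 for cbd-1 (0.84) and below it for the other tested genes, by -0.10 for egg-5 to -1.40 for cpg-2. For egg-1, egg-3, egg-5 and cpg-2 the difference between mutant libraries was larger in size than the fitted difference between genotypes, and for cbd-1, egg-2, egg-4 and cpg-1 it was smaller. The median log2 fold change of the family was 0.41 without rWQS045, 1.16 without rWQS029, 1.18 without rWQS019 and 0.57 without rWQS042.

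**Figure D3:**
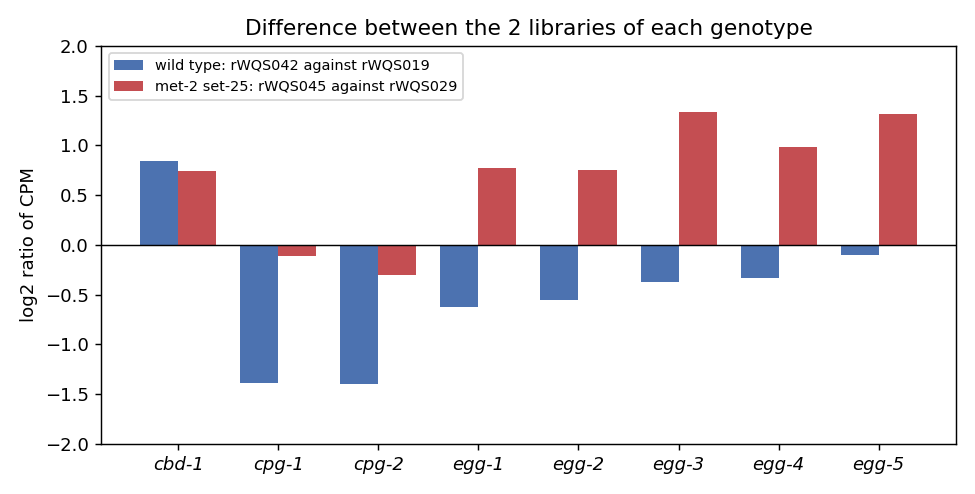
Log2 ratio of CPM between the libraries of a genotype (y axis) for the 8 tested genes, rWQS042 against rWQS019 in blue and rWQS045 against rWQS029 in red. The egg genes and cbd-1 are higher in rWQS045 than in rWQS029, by 0.75 to 1.33, and cpg-1 and cpg-2 differ most between the wild type libraries, by -1.39 and -1.40.

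Marker genes of the germline were also examined. Of 14 germline genes, 8 rose and 0 fell by DESeq2, which called 2.49% of all genes higher and 0.821% lower. The list mixes germline stages and includes meiotic chromosome genes. The median log2 fold change of the 14 genes was 1.75 and all were above 0, as were 51.6% of all genes tested. edgeR called 0 of the 14. At its unadjusted p under 0.05, where 6.2% of all genes were higher and 3.87% lower, it had 9 of the 14 higher and 0 lower. Their summed level was 646 and 680 CPM in wild type and 1387 and 2635 CPM in the mutant, and between the mutant libraries rWQS045 exceeded rWQS029 by a median log2 difference of 0.89, against 0.76 for the eggshell family. Between the wild type libraries, rWQS042 minus rWQS019, the median was 0.05 for the germline genes and -0.47 for the eggshell family. Without rWQS045 the list had a median log2 fold change of 1.08. The largest edgeR log2 fold changes of the list were those of the meiotic chromosome genes him-3 (3.87) and syp-1 (3.23). him-3 (5.36 ± 1.06 to 78.6 ± 16.4 CPM) and syp-1 (7.29 ± 0.166 to 68.6 ± 22.5 CPM), named after their values were seen, rose by DESeq2. The most abundant were glh-1 (206 ± 2.66 to 826 ± 487 CPM) and pgl-1 (99.1 ± 2.79 to 330 ± 95.6 CPM), both of P granules, which rose by DESeq2, and car-1 (147 ± 4.37 to 261 ± 71 CPM), an RNA granule gene that did not pass. Of 14 oocyte genes, which encode maternal RNA-binding proteins and the yolk receptor, 0 were called by edgeR or DESeq2. At edgeR's unadjusted p under 0.05, 3 were higher, against 6.2% of all genes tested. The median log2 fold change of the oocyte genes was 0.87, near the 0.74 of the eggshell family, and it was 0.17 without rWQS045. Their median log2 difference was 0.93 between the mutant libraries. Between the wild type libraries it was -0.13, where the eggshell family had -0.47. The sum of that list was 368 and 378 CPM in wild type, 391 CPM in rWQS029 and 271 CPM in rWQS045. Most of it came from lin-41 (297 ± 16.9 to 220 ± 126 CPM), which is also expressed in somatic cells, and from mex-3 (32.3 ± 6.71 to 27.7 ± 4.79 CPM). lin-41 and mex-3 had edgeR log2 fold changes below 0 (-0.43 and -0.22), while 12 of the 14 genes were above 0. spn-4, a maternal RNA-binding protein gene, went from 12.5 ± 1.67 to 25.3 ± 10.8 CPM with an edgeR adjusted p of 0.49. None of the oocyte genes was at 0. The part of germline amount or stage in the differences of the eggshell genes was not tested.

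Markers of other tissues gave smaller sums. The 7 sperm genes summed to 2.98 to 3.87 CPM in wild type and 4.46 to 5.11 CPM in the mutant, led by spe-41, spe-9 and spe-42. Among the 5 tested, 0 were called by edgeR or DESeq2 and the median log2 fold change was 0.31. At edgeR's unadjusted p under 0.05, 1 of them was higher, against 6.2% of all genes tested. gsp-3, named after its values were seen, had 0 counts in wild type and 3 and 5 in the mutant. The 5 genes of the gonadal sheath and spermatheca summed to 84.8 and 85.6 CPM in wild type and 82.7 and 55.5 CPM in the mutant, led by ceh-18, lim-7 and inx-9, with 0 called by edgeR or DESeq2, 0 at edgeR's unadjusted p under 0.05 and a median of 0.02. The gap junction gene inx-8, named after its values were seen, was at 0.391, 0.823 and 0.634 CPM in 3 libraries and at 7.37 CPM in rWQS045. Of the 6 yolk protein genes 2 were tested by edgeR, with vit-1 going from 1.68 ± 0.0225 to 5.64 ± 2.27 CPM in the mutant and vit-6 at 0.306 ± 0.0632 and 0.526 ± 0.207 CPM. vit-4, which edgeR did not test, was at 0.153 ± 0.0316 CPM in wild type and 0.184 ± 0.134 in the mutant. vit-1 rose by DESeq2 (edgeR adjusted p = 0.309), the list summed to at most 8.11 CPM, and its tested members had a median of 1.25. Of the 4 cuticle genes of L4 larvae and adults, bli-2 was at 1.3 and 1.03 CPM in wild type, 3.57 CPM in rWQS029 and 18.3 CPM in rWQS045 and rose by DESeq2 (edgeR adjusted p = 0.336), and bli-1 and col-7 did not pass. Between rWQS029 and rWQS045, bli-1 went from 0.507 to 1.79 CPM, while col-7 went from 0.38 to 0.134 CPM and col-19 from 0.177 to 0.0896 CPM, so the 4 cuticle genes did not share a direction. Over the 3 tested cuticle genes the median log2 fold change was 1.40 (0.65 without rWQS045). Whether developmental stage took part in the difference was not tested.

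The partners of these proteins, like the other tested genes of the family, had smaller fold changes than cbd-1 or egg-4. Of 13 other genes of eggshell formation and egg activation, 12 were tested by edgeR. edgeR and DESeq2 called 0 of them, and 0 were at an unadjusted p under 0.05 in edgeR. Their median log2 fold change was 0.43 and 9 were above 0, as were 51.6% of all genes tested. The most abundant of the list were the lipid synthesis genes fasn-1 (edgeR log2 fold change 0.73) and pod-2 (0.58), the reductase gene emb-8 (-0.39) and mbk-2. fasn-1, the fatty acid synthase, was at 399 CPM in rWQS019 and at 1127 to 1424 CPM in the other libraries. mbk-2, the kinase that EGG-3, EGG-4 and EGG-5 control, went from 232 ± 47.8 in wild type to 156 ± 26.1 CPM in met-2 set-25 (edgeR log2 fold change -0.57, adjusted p = 0.571). Further genes, named after their values were seen, are closer to the shell itself. chs-1, the chitin synthase, was at 10.7, 9.77, 10.1 and 18.1 CPM in rWQS019, rWQS042, rWQS029 and rWQS045, with only rWQS045 apart. gna-2, which makes the precursor of chitin, was at 3.39, 3.38, 4.97 and 6.52 CPM (edgeR log2 fold change 0.76, adjusted p = 0.553). The proteoglycan genes cpg-3 and cpg-4 had edgeR log2 fold changes of 0.39 and 0.50 (adjusted p = 0.777 and 0.714). For perm-1, perm-3, perm-5 and dgtr-1 of the same list, also named after their values were seen, the edgeR log2 fold changes were 0.20, 0.24, -0.16 and 0.80. spe-11, a paternal factor for eggshell formation, had 0 counts in wild type and 1 and 5 in the mutant.

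Genes that take part in building chondroitin, the chain carried by CPG-1 and CPG-2, did not pass either test. Of 9 such genes, sqv-1 to sqv-8 and mig-22, 0 were called by edgeR or DESeq2, 0 were at an unadjusted p under 0.05 in edgeR, and the median log2 fold change was 0.06. The wild type and mutant means were 85.9 ± 13.7 and 93.1 ± 43.1 CPM for sqv-4, and 63.2 ± 2.25 and 64.9 ± 7.13 CPM for mig-22. sqv-5 and sqv-1, the next most abundant, had log2 fold changes of -0.07 and 0.06. The largest were 0.60 for sqv-6 and 0.56 for sqv-2, named after their values were seen, with both mutant libraries above both wild type libraries (edgeR adjusted p = 0.629 and 0.611). Of 9 genes of cell cycle machinery that acts at meiotic exit and in other divisions, 0 were called by edgeR or DESeq2. All 9 had a log2 fold change above 0, as did 51.6% of all genes tested, and the median of the list was 0.71. The 9 genes are not particular to the egg. mat-2, a subunit of the anaphase-promoting complex, had means of 52.2 ± 8.07 CPM (wild type) and 102 ± 14.8 CPM (mutant). It was the only gene of that list at an unadjusted p under 0.05 in edgeR (0.0126, adjusted 0.324), where 6.2% of all genes tested were higher. mat-1 and emb-30, of the same complex, had log2 fold changes of 0.21 and 0.25, and cdk-1 of 0.71. The median log2 difference of this list between rWQS045 and rWQS029 was 0.75, beside 0.76 for the eggshell family. Between the wild type libraries, rWQS042 minus rWQS019, it was 0.05, beside -0.47 for the eggshell family. The median fold change of the cell cycle list on the log2 scale was 0.17 when rWQS045 was left out.

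**Figure D4:**
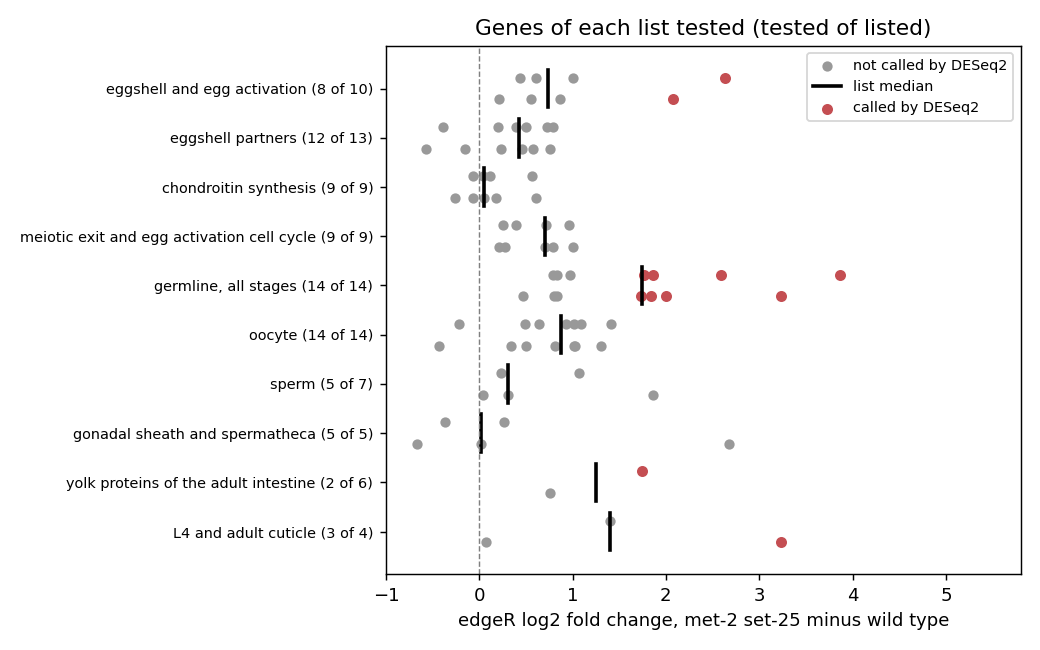
edgeR log2 fold change, met-2 set-25 minus wild type (x axis), of the tested genes of the eggshell family, its partners and the marker lists (rows, with tested of listed genes), with DESeq2 calls in red and list medians as bars. The median of the eggshell family (0.74) is near those of the oocyte genes (0.87) and of the general cell cycle genes that act at meiotic exit (0.71). It is below that of the germline genes (1.75).

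The protein-coding neighbours of the 2 genes called by DESeq2 were examined for a shared difference. Beside cbd-1, sec-31, a vesicle coat gene 1199 bases away, had 108 and 100 CPM in wild type against 120 and 160 CPM in the mutant (edgeR log2 fold change 0.43, adjusted p = 0.628). fbxb-76, 544 bases away on the other side, was at 0 to 0.101 CPM. Beside egg-4, T21E3.2 was at 0 to 0.0507 CPM, and lrp-2, a receptor gene, had 156 and 123 CPM in wild type against 139 and 79.6 CPM in the mutant (log2 fold change -0.35, adjusted p = 0.764). fbxb-76 and T21E3.2 had too few counts to test, and sec-31 and lrp-2 did not pass edgeR or DESeq2.

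The mean profile of the 8 tested genes over the 4 libraries had its lowest value in rWQS042 and its highest in rWQS045. On log2(CPM + 1) centred on each gene's mean, it was -0.23 in rWQS019, -0.60 in rWQS042, 0.15 in rWQS029 and 0.68 in rWQS045. Of 13429 other genes with a mean of at least 1 CPM, those at the smallest Euclidean distance to this profile were fbxa-211 (0.0628), Y57A10A.4 (0.0644), fubl-4 (0.0758), rnh-1.2 (0.0945) and F56C9.3 (0.108). Their edgeR log2 fold changes lay between 0.91 for fubl-4 and 1.26 for fbxa-211, none passed edgeR or DESeq2, and with 4 libraries such closeness is a description only.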

How the data were processed

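Raw counts per gene were deposited by the authors, 1 column per library, with no normalization or pooling. Per the study's methods, libraries were made with the TruSeq RNA kit, which does not mark strand, and reads were aligned with STAR to ce10 with annotation WS235 and counted with HTSeq; the submitters' processing notes name featureCounts. Versions, and the treatment of reads shared between genes, are not given in the sources used here. Columns left out numbered 0.

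The 10 genes and the 10 pathway and marker lists were chosen with earlier results of these data known. Genes were matched by WormBase identifier, and positions and exon lengths come from the Ensembl annotation of WBcel235, never mixed with ce10. Genotypes were compared with the quasi-likelihood test of edgeR (version 4.0.16, R 4.3.3) across 15978 genes kept by filterByExpr, with genotype as the only term, TMM factors and Benjamini-Hochberg adjustment over all genes (threshold 0.05). SEs and intervals come from that test's F statistic. DESeq2 1.42.0, the tool of the study, gave an adjusted p to 16562 genes and was the first alternative. limma voom (3.58.1), other factors and filters, and each library left out were the others. Scripts were tested on simulated counts. CPM per kilobase was added after the data were seen.

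All 10 genes are named. Of each pathway list, genes called by either tool and the 4 most abundant are named, of each marker list the 3 most abundant, and the 5 genes with the profile nearest to that of the family. Genes outside this rule are marked as named after their values were seen, apart from targeted genes, neighbours and overlapping genes. Precision is limited by 2 libraries per genotype, and counting intervals cover counting error only.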

Additional observations from a re-analysis of the deposited data

How the results depend on the processing

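edgeR called 0 genes over all and 0 of the eggshell genes, also with RLE factors, library sizes alone or a minimum mean of 1 CPM, and limma voom likewise called 0. DESeq2 called 548 genes over all and 2 of the eggshell genes, edgeR without its low-count filter called 1223 and 2, and at an adjusted p under 0.1 edgeR called 92 and 0. With each library left out in turn, edgeR called 0 to 228 genes over all and 0 of the eggshell genes, and DESeq2 called 155 to 1433 over all and 0 to 2 of the eggshell genes; the cause was not tested. The pair under DESeq2 and under no filter was cbd-1 and egg-4. The median log2 fold change of the tested eggshell genes was 0.74 and ranged from 0.40 to 1.19 with a library left out. The fold change turned below 0 for cpg-1 without rWQS042 (-0.11 in edgeR, -0.07 in DESeq2), for cpg-2 without rWQS042 (-0.33 and -0.29) and for egg-5 without rWQS045 (-0.19 and -0.20), and for none of the 8 under another setting. With a library left out, the highest values of these genes were 1.28 for cpg-1, 1.07 for cpg-2 and 1.15 for egg-5. cbd-1 ranged from 2.20 to 3.16 and egg-4 from 1.50 to 2.52 over all alternative fits. No paired analysis was possible because the columns of the count tables carry no replicate number. Genes with under about 100 counts in a library, such as egg-4 and egg-5 in wild type, are limited by depth, and perm-2 and perm-4 could not be tested. No alternative gave either of them an adjusted p under 0.05.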
